A study of Homo sapiens with 4 samples.

Results

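HOXB13 binding was described at 7 genes for prostate membrane proteins, FOLH1, STEAP1, STEAP2, STEAP4, TRPM8, SLC45A3 and PSCA. These genes were chosen with earlier results of these data known. A peak was assigned to a gene when its summit lay within 50 kb of the gene in the hg19 build, a rule that does not use peak height. This gave 45 of the 68725 deposited peaks of the GSK2879552 list and 3 of the 3722 of the vehicle list. The windows of STEAP1 and STEAP2 overlap and share 8 peaks, which were counted once in the totals.

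The peaks came from chromatin immunoprecipitation and sequencing of HOXB13 in LNCaP, a widely used prostate cancer cell line that responds to androgen. According to the treatment text, cells were in RPMI1640 with 5% CSS and received 50 µM of GSK2879552 for 4 hours. This compound inhibits LSD1 (KDM1A), which removes methyl groups from histones. The treatment text is the same for every sample, so the vehicle group rests on titles and descriptions, and its dose and time are not given separately. Each treatment has 1 library sequenced in 2 lanes, called technical replicates, and 1 peak list for both lanes, so there is no measure of spread between cultures and no test of treatment was possible.

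The homeobox protein HOXB13 marks the prostate lineage and binds DNA together with the androgen receptor and the forkhead factor FOXA1 at many enhancers. The 7 genes encode proteins carried by membranes of prostate epithelial and cancer cells, several of them used as targets for imaging or antibody-based therapy. FOLH1 encodes prostate-specific membrane antigen, a folate hydrolase and glutamate carboxypeptidase. The STEAP proteins are multi-pass membrane proteins, of which STEAP2 and STEAP4 reduce iron and copper. TRPM8 is a cation channel opened by cold and menthol. SLC45A3, also called prostein, belongs to a family of sugar transporters, and PSCA is a small protein anchored in the membrane by a lipid.

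The lists differed in their background of tags. Pileup, the number of extended tags over a summit, and local background were solved from the deposited fold enrichment and p-value of each peak. The genome-wide background, the commonest local background, came to 2.79 tags with GSK2879552 and to 0.443 tags with vehicle, a ratio of 6.31. The lowest pileup called anywhere was 10 in the first list and 5 in the second. Fold enrichment below is the authors' value at the summit relative to the local background of the same library, and is ranked only within its list. Read counts were not analysed here, so a difference in sequencing depth was not measured directly. The parts of depth and treatment in any difference between the lists cannot be told apart.

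HOXB13 peaks were found in the windows of all 7 genes in the GSK2879552 list. This is ordinary for windows of these lengths, whose median along the chromosomes was 2 to 4 peaks. They were densest at STEAP2 and STEAP1, whose windows overlap, with 119 and 99.6 per Mb of window, followed by FOLH1 with 61.7. The windows held 15 peaks at STEAP2, 11 at STEAP1, 10 at FOLH1, 6 each at STEAP4 and SLC45A3, 3 at TRPM8 and 2 at PSCA. Over the merged windows this came to 49.3 peaks per Mb, against 23.7 over the whole list on chromosomes 1 to 22, X and Y without long peak-free intervals. The order depended on weak peaks: at a −log10 q of at least 5, STEAP2 kept 10 peaks (79.1 per Mb), FOLH1 8 (49.4 per Mb) and STEAP1 5 (45.3 per Mb). With a window of 10 kb, FOLH1 had the most peaks, 7, against 5 at STEAP2 and 4 at STEAP1, while per Mb STEAP1 (131) and STEAP2 (108) stayed above FOLH1 (85.3). Of the 45 peaks, 20 had their summit inside 1 of the 7 genes and 25 outside.

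**Figure D1:**
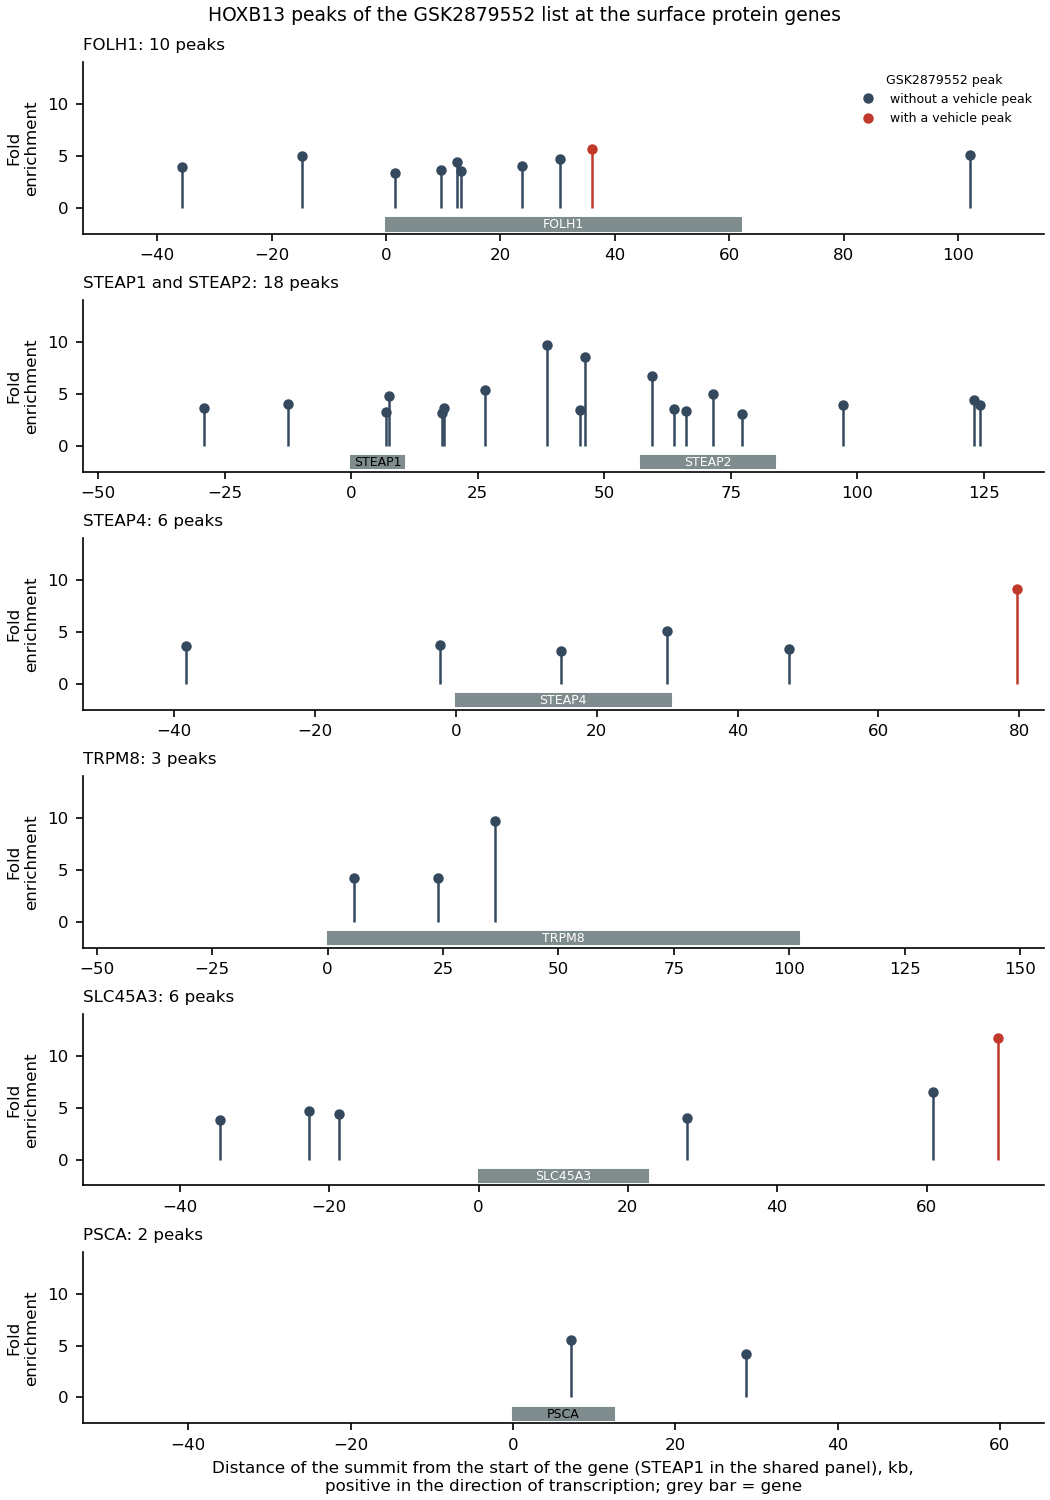
Position of each HOXB13 summit of the GSK2879552 list (x axis, kb from the start of the gene, positive in the direction of transcription) against its fold enrichment (y axis, linear), with 1 panel per gene and a shared panel for STEAP1 and STEAP2. Grey bars are the genes, red marks the 3 peaks overlapped by a vehicle peak; at STEAP4 and SLC45A3 the tallest peak lies far to the 3' side, while the TRPM8 peaks all lie inside the gene.

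In fold enrichment these peaks had the same median as the whole list, and in pileup a higher one, 24 against 18. Their fold enrichment ran from 3.03 to 11.7 with a median of 4.22 (quartiles 3.64 and 5.01), and that of the whole list had a median of 4.22 (quartiles 3.69 and 5.02). Of the 45, 7 (15.6%) were in the top 10% of the list by fold enrichment, which begins at 6.29. By construction the share over the list is 10.0%. These 7 were 2 peaks between STEAP1 and STEAP2, 1 inside STEAP2, 2 on the 3' side of SLC45A3, 1 inside TRPM8 and 1 on the 3' side of STEAP4. FOLH1 and PSCA had none. The peaks were 139 to 597 bp wide with a median of 228 bp, against 199 bp over the list. Of the 45, 3 measured 500 bp or more, compared with 1705 of 68049 (2.51%) in the list, and 3 peaks are too few to compare shares.

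**Figure D2:**
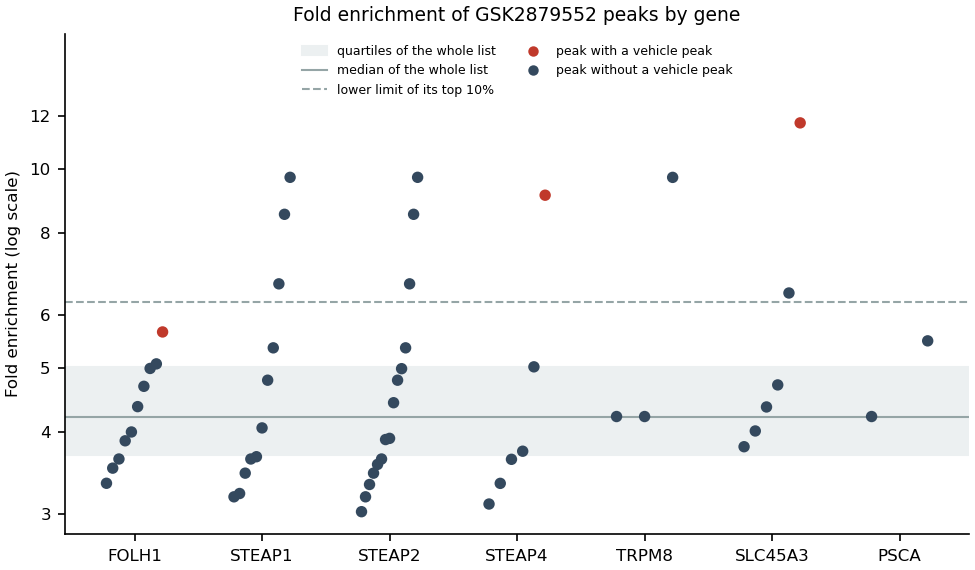
Fold enrichment (y axis, log scale) of each GSK2879552 peak by gene (x axis), each point a peak, red where a vehicle peak overlaps it; the 8 peaks shared by STEAP1 and STEAP2 appear under both. The grey band and lines give the quartiles, the median and the lower limit of the top 10% of the whole list; FOLH1 and PSCA stay below that limit and the tallest peak is at SLC45A3 with 11.7.

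STEAP1 and STEAP2 lie next to each other on chromosome 7 in the same orientation, and HOXB13 peaks were spread over both genes and the interval between them. STEAP1 (chr7:89783689-89794143) held 2 summits inside the gene. STEAP2 (chr7:89840999-89867451) held 5. The 46.9 kb between the genes held 6, a density of 128 per Mb, against 26.6 per Mb over chromosome 7. Of 22694 windows as long as that of STEAP2 (126.5 kb) laid end to end along the chromosomes, 0.216% held 15 or more peaks and the median window held 3. For the 110.5 kb window of STEAP1, 0.45% of 25977 windows held 11 or more and the median was 2. The density at these genes was thus in the upper tail of the list. Their windows overlap and share 8 peaks, so the shares for STEAP2 and STEAP1 are not independent. The genes were chosen with earlier results of these data known, and the windows along the chromosomes were not matched for gene content.

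The tallest peaks of this pair of genes by fold enrichment lay between them. The first (chr7:89822228-89822689) had a fold enrichment of 9.70 with a pileup of 52, higher than 98.7% of the list in fold enrichment. Its summit was 28.3 kb past the end of STEAP1 and 18.6 kb before the start of STEAP2. The second (chr7:89829495-89829940) had a fold enrichment of 8.53 with a pileup of 45, with its summit 11.2 kb before the start of STEAP2. The other 4 peaks between the genes ranged lower, down to 3.19. No vehicle peak was called within 50 kb of STEAP1 or STEAP2.

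The third tallest peak by fold enrichment was inside STEAP2 near its start, and its pileup was the highest at this pair of genes. This peak (chr7:89842828-89843331) was 504 bp wide, with a fold enrichment of 6.70 and with a pileup of 54, and its summit lay 2036 bp into the gene. The other 4 peaks inside STEAP2 had fold enrichments of 3.03, 3.33, 3.57 and 4.98. At STEAP1 the nearest summit to the start lay 6952 bp into the gene, in a peak (chr7:89790587-89790725) with a fold enrichment of 3.23 and with a pileup of 22. The stronger of the 2 peaks inside STEAP1 (chr7:89791097-89791397) reached 4.79 with a pileup of 33. No summit was found closer to the start of STEAP1 inside the gene, or within 12.5 kb before it.

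RefSeq lists 11 transcription starts for the 5 genes whose promoter sequences were at hand, STEAP1, STEAP2, STEAP4, TRPM8 and SLC45A3. These starts are in the GRCh38.p14 build and the peaks in hg19, so no position was carried over. Instead, the distance from the first start of a gene to a further start in GRCh38.p14 was set beside the distance from the start of the same gene to a summit in hg19. The match is approximate, since the outer limits of the gene models differ between the sources, by 7 bp in length for SLC45A3, 26 bp for TRPM8 and 96 bp for STEAP1, and by 5216 bp for STEAP2 and 5518 bp for STEAP4. On this scale 2 of the 11 starts had a summit within 1000 bp. The first starts of the 5 genes were not among them.

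Both were later starts of their genes. The second start of STEAP2 lies 2080 bp from the first, and the summit inside the gene lies 2036 bp from the gene start, which places it 44 bp upstream of that start. Measured from the start of STEAP1 instead, it was 5 bp upstream. A start of TRPM8 lies 36380 bp from the first, and the tallest TRPM8 summit lies 36207 bp from the gene start, 173 bp upstream. A further match was to a neighbour of STEAP4. SRI, which encodes the calcium-binding protein sorcin, has a start 79918 bp from that of STEAP4, and the tallest peak in the STEAP4 window lies 79768 bp from it, 150 bp upstream of the SRI start. The 250 bases before each of these 3 starts are printed because they are the sequences at hand nearest to 3 of the tallest peaks. They are RefSeq sequence of GRCh38.p14, 5′ to 3′ in the direction of transcription, from chr7:90213570-90213819 (plus strand), chr2:233953503-233953752 (plus strand) and chr7:88226977-88227226 (minus strand). Capitals mark the motifs found.
STEAP2, later start: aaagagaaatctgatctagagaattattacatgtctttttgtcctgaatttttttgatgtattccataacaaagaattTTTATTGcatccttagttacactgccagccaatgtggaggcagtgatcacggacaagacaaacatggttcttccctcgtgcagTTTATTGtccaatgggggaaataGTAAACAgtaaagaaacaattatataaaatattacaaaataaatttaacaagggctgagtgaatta
TRPM8, later start: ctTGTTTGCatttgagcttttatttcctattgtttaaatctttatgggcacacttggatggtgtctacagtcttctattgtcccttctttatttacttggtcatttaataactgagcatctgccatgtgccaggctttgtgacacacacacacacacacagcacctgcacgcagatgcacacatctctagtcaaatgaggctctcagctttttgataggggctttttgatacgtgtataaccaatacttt
SRI start: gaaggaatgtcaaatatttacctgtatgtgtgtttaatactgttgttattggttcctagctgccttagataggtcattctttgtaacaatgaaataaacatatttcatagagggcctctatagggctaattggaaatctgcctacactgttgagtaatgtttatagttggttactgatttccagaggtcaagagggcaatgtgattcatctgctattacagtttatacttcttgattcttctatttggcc

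Motifs were searched on both strands of these windows. For HOXB13, CCAATAAA and CTCGTAAA were in none of the 3, and are in 0.863% and 0.117% of the 35116 RefSeq windows of the same length. The shorter CAATAAA, which is contained in CCAATAAA and was added after the sequences had been seen, was read at 2 places in the STEAP2 window, as TTTATTG on the printed strand, and is in 3.66% of all windows. The forkhead motif TGTTTAC was in the STEAP2 window as GTAAACA, against 2.98% of all windows. The forkhead motif TGTTTGC was at the 5′ end of the TRPM8 window, against 3.23%. AGAACA, an element bound by the androgen receptor, was in none of the 3, against 12.4% of all windows. The SRI window held none of the motifs. The shares over all windows were not matched for base composition, so they are not chance rates for the printed windows. A match describes letters in these windows and does not show a bound site.

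At FOLH1 the peaks gathered inside the gene. FOLH1 (chr11:49168187-49230222, minus strand) held 7 summits within its 62.0 kb, 113 per Mb, while its flanks of 50 kb on either side held 3, 30 per Mb. The 7 inside lay between 1547 and 35953 bp from its start, and the rest of the gene up to its 3' end held none. Chromosome 11 had 24.9 peaks per Mb. Of windows as long as that of FOLH1 along the chromosomes, 3.75% held 10 or more peaks. An enhancer of FOLH1 in the third intron is known from earlier work, and exons and introns were not assigned here. In the order from the start, the 7 peaks had fold enrichments of 3.34, 3.64, 4.37, 3.52, 4.00, 4.69 and 5.66.

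The peaks nearest the FOLH1 start were low in fold enrichment although some had high pileups. The peak nearest the start (chr11:49228502-49228748) had a fold enrichment of 3.34, higher than only 9.31% of the list, and a pileup of 18. Next came 3 peaks with summits 9.6, 12.5 and 13.2 kb into the gene, with pileups of 39, 49 and 40. Their local backgrounds were 3.58, 3.74 and 3.81 times the genome-wide one, the highest of the 45 peaks. The peaks outside the gene had backgrounds of 1.06 to 1.15 times. The pileups of these 3 peaks were thus above the list median of 18, while their fold enrichments of 3.52 to 4.37 lay on either side of the list median of 4.22.

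FOLH1 was the 1 gene of the 7 with a vehicle peak inside it. The tallest FOLH1 peak of the GSK2879552 list by fold enrichment (chr11:49194072-49194405) had 5.66 and a pileup of 43 (exact 95% Poisson interval 31.1 to 57.9). The vehicle peak (chr11:49194126-49194232) had a fold enrichment of 4.49 with a pileup of 7 (2.81 to 14.4), with its summit 96 bp away. It was a weak peak of its list, with a −log10 q of 2.03 and a fold enrichment higher than only 6.9% of the vehicle peaks. RefSeq also lists FOLH1B, a transcribed pseudogene related to FOLH1 on the same chromosome. The placement of reads that match both was not known here, and its part in the FOLH1 values was not tested.

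STEAP4 lies apart from STEAP1 and STEAP2 on chromosome 7 and had fewer peaks. STEAP4 (chr7:87905744-87936228, minus strand) held 2 of the 6 summits inside the gene, and 15.5% of windows of the same length along the chromosomes held 6 or more peaks. Its tallest peak (chr7:87856265-87856703) had a fold enrichment of 9.12 with a pileup of 54 (40.6 to 70.5). That summit lay 49.3 kb past the 3' end of STEAP4, just inside the limit of the window, and is the one set beside the start of SRI above. The other 5 peaks had fold enrichments of 3.11 to 5.01 and pileups of 14 to 22. The nearest to the start of STEAP4 (chr7:87938348-87938575) had 3.74 and lay 2240 bp upstream.

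The tall peak in the STEAP4 window was shared with the vehicle list. The vehicle peak (chr7:87856339-87856510) had a fold enrichment of 5.59 with a pileup of 9 (4.12 to 17.1), with its summit 48 bp away. No vehicle peak was called closer to STEAP4.

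TRPM8 held 3 peaks in the longest window of the 7, and all 3 lay inside the gene. TRPM8 (chr2:234826043-234928166, plus strand) had 14.8 peaks per Mb in its 202.1 kb window, against 16 per Mb over chromosome 2, a chromosome sparse in peaks. Of windows of this length, 71.2% held 3 or more. The tallest peak (chr2:234861961-234862373) had a fold enrichment of 9.70 with a pileup of 47, higher than 98.7% of the list in fold enrichment. The other 2 (chr2:234831789-234831961 and chr2:234849826-234849967) both had 4.22 and a pileup of 15 at the genome-wide background, and the first was the nearest to the gene start at 5801 bp. TRPM8 thus had 1 tall peak and 2 near the median of the list, and no vehicle peak.

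SLC45A3 was the only 1 of the 7 genes with no summit inside it, and it had the tallest peak of all 45 in its window. SLC45A3 (chr1:205626979-205649630, minus strand) had 3 summits on each side, and 13.1% of windows of the same length held 6 or more peaks. The tallest peak (chr1:205579813-205580324) had a fold enrichment of 11.7, rank 290 of 68049, and a pileup of 111 (91.3 to 134). The next (chr1:205588516-205589112) was the widest of the 45 at 597 bp, with 6.49 and a pileup of 31. Their summits lay 46.9 and 38.2 kb past the 3' end, on the side where RefSeq lists ELK4 as the next protein-coding gene. In the comparison of distances used above, an ELK4 start lies 48498 bp from that of SLC45A3. The nearer summit, 60857 bp from the SLC45A3 start, would then lie 12359 bp past the ELK4 start in the direction of transcription, and the tallest farther along. ELK4 encodes an ETS family transcription factor, and read-through transcripts that join SLC45A3 to it are known from prostate cancer. Which of the genes these peaks belong to was not tested.

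The remaining 4 peaks of SLC45A3, 1 on the 3' side and 3 upstream, were lower. The nearest summit to the start (chr1:205668181-205668380) lay 18652 bp upstream with a fold enrichment of 4.36, the largest such distance among the 7 genes. The other 2 upstream peaks had 4.71 and 3.8. The third peak on the 3' side (chr1:205621582-205621730) had 4.01 and was the only SLC45A3 peak left with the window drawn at 10 kb.

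The tallest SLC45A3 peak was also the strongest of the 3 vehicle peaks. The vehicle peak (chr1:205579953-205580209) had a fold enrichment of 9.0, higher than 92.6% of the vehicle list, a −log10 q of 11.8 and a pileup of 18 (10.7 to 28.4). The summits in the lists were 10 bp apart.

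PSCA had the fewest peaks. PSCA (chr8:143751726-143764145, plus strand) held 1 summit inside the gene, in a peak (chr8:143758811-143759073) with a fold enrichment of 5.49 and with a pileup of 27, 7179 bp from its start. The other (chr8:143780343-143780492) lay 16.3 kb past its end with 4.22 and a pileup of 15. Of windows of the same length, 64% held 2 or more peaks, so PSCA was near the middle of the list in number. No vehicle peak was called.

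The 3 vehicle peaks at the 7 genes were all at sites of the GSK2879552 list. They came to 3.28 per Mb of the merged windows, against 1.22 over the vehicle list, and 3 peaks are too few to compare densities. Each of the 3 shared 1 bp or more with a GSK2879552 peak (exact 95% binomial interval 29.2 to 100%), against 91.2% over the vehicle list. In the other direction 3 of the 45 GSK2879552 peaks, 6.67% (1.40 to 18.3), were overlapped, against 4.59% over the list. The interval holds the share of the whole list. It treats the 45 peaks as independent, though many lie close together at the same genes, so no conclusion on a difference is drawn. Intervals cover counting error only.

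At the 3 shared sites the pileups differed by about as much as the backgrounds of the libraries. The GSK2879552 pileup was 6.17 times the vehicle pileup in the SLC45A3 window (exact 95% interval 3.73 to 10.8). It was 6.14 times inside FOLH1 (2.74 to 16.2) and 6 times in the STEAP4 window (2.94 to 13.8). The ratio between the genome-wide backgrounds was 6.31. The sites in the SLC45A3 and STEAP4 windows lay 46.9 and 49.3 kb past the 3' ends of those genes. Both values of a pair exist only where both lists have a peak, and the vehicle pileups of the other 42 sites were not analysed here. The vehicle pileups of the FOLH1 and STEAP4 sites, 7 and 9, were near 5, the lowest called in that list. This limits how large their ratios could be. The smallest peak widths, 139 and 100 bp, differed too, so a pileup ratio is not a ratio of tags.

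Over the whole list, whether a site was shared went with its height, and the values at these genes are set beside it. Of the 7 peaks in the top 10% by fold enrichment, 2 were overlapped by a vehicle peak (28.6%, 3.67 to 71.0), against 28.1% of all such peaks in the list. Of the 38 others 1 was (2.63%, 0.0666 to 13.8), against 1.98% of the list. The shares of the 7 and the 38 were not tested against each other. Shared counts of 2 and 1 are too few to show the trend by these peaks alone. By pileup, 0 of 16 members below 20 were overlapped (0.579% in the list), 0 of 12 from 20 to under 30 (2.94%), 0 of 7 from 30 to under 40 (12.1%), and 2 of 9 from 40 to under 60 (36.0%). A count of 0 among the 35 members below 40 allows a share of up to 8.57%, taken as 3 counts of 35 and not as an exact interval. The SLC45A3 peak was the only member of 60 or more, where 72.9% of the list was overlapped. The tall peaks without a vehicle peak, at STEAP1 and STEAP2 (pileups 52, 45 and 54) and TRPM8 (47), fell in a class in which most peaks of the list had none either.

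**Figure D3:**
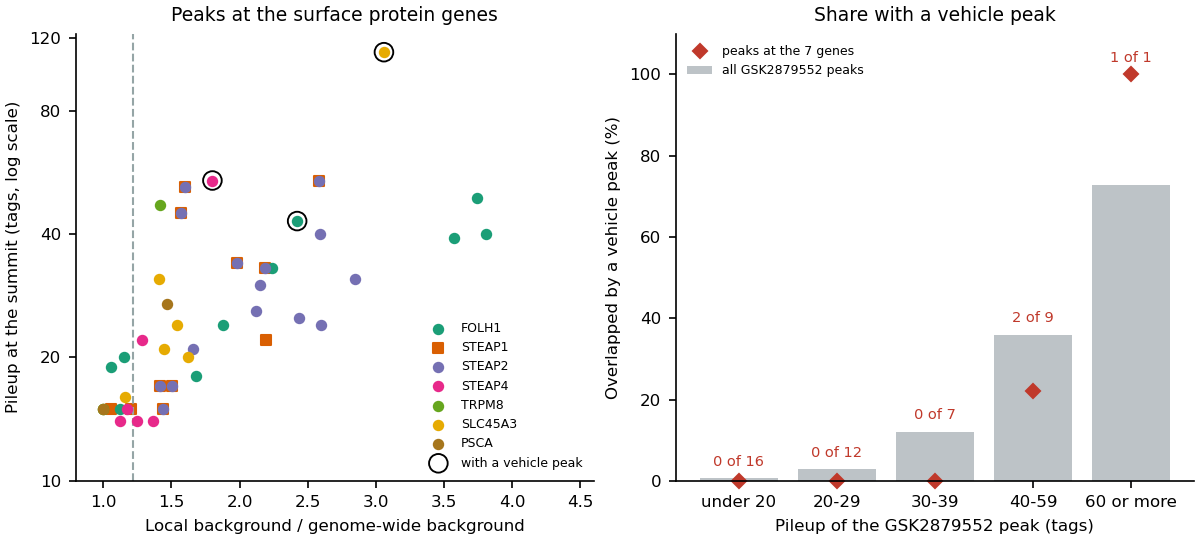
Left, pileup at the summit (y axis, tags, log scale) against local background relative to the genome-wide one (x axis) for the GSK2879552 peaks at each gene, with the list median of 1.22 dashed and rings on the 3 peaks with a vehicle peak; squares lie under circles where STEAP1 and STEAP2 share a peak, and the FOLH1 peaks reach the highest backgrounds, 3.81 times. Right, share of peaks overlapped by a vehicle peak (y axis, percent) by pileup class (x axis), bars for the whole list and diamonds with counts for the 7 genes, with 2 of 9 against 36.0% in the class of 40 to 59.

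Local background was higher at these genes than over the list. Its median was 1.57 times the genome-wide value at the 45 peaks (quartiles 1.25 and 2.19), against 1.22 times (1.05 and 1.45) over the list. Of the 45, 15 (33.3%) had at least 2 times, against 5.71% of the list. These 15 were peaks at FOLH1, STEAP1, STEAP2 and SLC45A3. The median was 2.12 times at STEAP2, 2.06 at FOLH1 and 1.57 at STEAP1, against 1.25, 1.23 and 1.25 over all peaks of chromosomes 7, 11 and 7. It was 1.5 at SLC45A3, 1.27 at STEAP4 and 1.23 at PSCA, where chromosomes 1, 7 and 8 each had 1.25. TRPM8 had 1.0, against 1.06 over chromosome 2. The genes with most peaks, STEAP2, STEAP1 and FOLH1, were thus the 3 with the highest background. STEAP1 and STEAP2 share 8 of their peaks, so they are not separate cases. Tags of neighbouring peaks can enter the local background, and the part of background in peak number was not tested.

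The limit of 50 kb decided membership of some tall peaks. The STEAP4 peak of 9.12 lay 49.3 kb and the SLC45A3 peak of 11.7 lay 46.9 kb from their genes. The nearest peaks outside had their summits 55.8 kb from FOLH1 with a fold enrichment of 4.31 and 56.0 kb from STEAP4 with 5.80, neither with a vehicle peak. The nearest outside the SLC45A3 window lay 79.9 kb away with 4.64 and had one.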

How the data were processed

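Members and gene list were chosen with earlier results of these data known. Per the submitters' processing notes, the tools were MACS2 2.1.2, BWA 0.7.2 and SAMtools 0.1.18, and the builds hg19 and GRCh37, listed with no role. Peak-calling options and any input control: not given in the sources used here. A narrowPeak list covers both lanes of a treatment. The score deposited for each peak equals 10 times its −log10 q-value with the decimals dropped, in 100% of the peaks used. The fold enrichment, a ratio to the local background, and both the −log10 p-value and the −log10 of the q-value are values at the summit as deposited by the authors, with a largest q-value of 0.0469 and 0.05. Peaks on chromosomes 1 to 22, X and Y were used.

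Pileup k and background λ came from solving (k + 1)/(λ + 1) = fold enrichment together with the Poisson p-value, with a whole k within 0.001 for 100% of peaks of both lists. Solver and overlap routine were tested on simulated data. Long peak-free intervals are those of at least 2.5 Mb. Genes were taken in hg19; gene strands of FOLH1 and PSCA are general knowledge, and the others match RefSeq (GRCh38.p14), where 5 of 7 genes matched a promoter sequence. Named peaks are, per gene, the tallest by fold enrichment, the nearest to the gene start, every vehicle peak with its partner, and all peaks of windows with 5 or fewer; others named for STEAP1, STEAP2, FOLH1 and SLC45A3 were chosen after their values were seen. A planned set of other genes was not run, as it needed an hg19 annotation. Computation used Python 3.11.15, SciPy 1.17.1 and pandas 2.3.3. Alternatives covered the window, stricter thresholds and the definition of overlap. Signal tracks were not analysed here.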

Additional observations from a re-analysis of the deposited data

How the results depend on the processing

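No paired analysis was possible because each treatment has 1 peak list for both lanes, and for the same reason no lane could be left out. The 45 GSK2879552 peaks became 24 with a window of 10 kb, 26 at a −log10 q of at least 5 and 12 at a fold enrichment of at least 5, and 65 with a window of 100 kb. The 3 vehicle peaks became 1 with a window of 10 kb (at FOLH1) and 1 at a −log10 q of at least 5 (at SLC45A3). The median fold enrichment of 4.22 rose by selection to 4.99 at a −log10 q of at least 5 and 6.59 at a fold enrichment of at least 5. With the GSK2879552 list cut to the length of the vehicle list by p-value, the share of its peaks with a vehicle peak was 33.3% (2 of 6). That lies outside the interval of the reported value, 1.40 to 18.3%. The other alternatives gave between 2.22% and 16.7%, within that interval. The share of vehicle peaks with a partner was 33.3% (1 of 3) under a reciprocal overlap of 50% and 66.7% (2 of 3) with lists of equal length. Neither share was computed over the whole list under these alternatives, so a change in it cannot be set against that of the list. The vehicle library had the lower background of tags, and sites without a vehicle peak are not shown to be unbound.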
